A study of Neurospora crassa with 34 samples.

Results

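The lists of chromosomal breakpoints called from input DNA of 9 Neurospora crassa isolates hold 2782 calls, and the 1199 of type DELETION are described here. Members were all calls of that type in the 18 lists, which are 1 list from discordant read pairs and 1 from split reads for each isolate. A deletion call joins 2 positions on the same linkage group (LG), in the orientation that reads show when the sequence between them is skipped. Discordant read pairs gave 725 calls and split reads gave 474, all 1199 had the plus and minus strands of that orientation, and 5 lay on contigs outside LG I to VII. The type is the caller's own label. It states that reads skip an interval of the reference and does not measure the number of copies of what lies between, so a segment moved elsewhere leaves the same junction as a segment lost.

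Neurospora crassa is a haploid filamentous fungus with 7 linkage groups, and a deletion that takes a gene leaves no other copy in the nucleus. Its genome is shaped by repeat-induced point mutation (RIP), which mutates duplicated DNA during the sexual cycle and leaves AT-rich, gene-poor relics of transposons between the genes. An insertional translocation moves a segment from one chromosome to another, so the donor chromosome shows a junction that skips the moved segment.

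The study asked where H3K27me2/3, the facultative heterochromatin mark of subtelomeric domains, goes when chromosome segments change place. The isolates were ALS159, OY320, OY329, OY337, OY350, UK2-32, UK3-41 and a pair labelled AR16, FGSC1614 and FGSC2643. Each was represented by 1 input library from germinated conidia, so no value of an isolate has a replicate error. In the study's strain list ALS159 is mat A T(IV->VI), OY320 and OY329 are mat A T(VI->III), OY337 is mat A T(II->IV) with al-2, OY350 is mat A T(VIL->IR), UK2-32 is mat A T(IVR->VL), UK3-41 is mat A with inl and a translocation of VR, and AR16 FGSC1614 is mat a In(IL->IR). The genotype of AR16 FGSC2643 was not found in that list. All carry a rearrangement, none is the sequenced wild type that serves as the reference, and a call is a difference from that reference that need not stem from the rearrangement. No treatment was given. The mRNA of 7 of the isolates, with AR16 as FGSC1614, was measured in 2 libraries each by poly-A+ sequencing, with 6435058 to 27994440 reads on genes.

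The number of deletion calls ran from 42 in OY350 over a median of 100 to 403 in AR16 FGSC2643. AR16 FGSC2643 stood apart, with 33.6% of all deletion calls, and the next isolate, UK2-32, had 160. Deletions made up 27.3% of the calls of OY350 (95% Wilson interval 20.9 to 34.8, counting error only), 54.3% in AR16 FGSC1614 (47.5 to 60.9) and 56.1% in AR16 FGSC2643 (52.5 to 59.7), against 43.1% over all isolates. Across the 9 isolates the number of deletion calls went with the number of other calls (Pearson r = 0.870, exact permutation p = 0.006, adjusted over the 7 tests computed across isolates 0.0137, and Spearman rho = 0.717, exact permutation p = 0.0369, adjusted 0.0517). Without the 2 isolates farthest from the median, both AR16, r was 0.867 (exact permutation p = 0.00952), whereas without AR16 FGSC2643 alone it was 0.616 (exact permutation p = 0.111). The sequencing depth of the input libraries is unknown from the call lists, and its part in the number of calls was not tested.

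The isolates placed their deletions on different linkage groups. LG VII carried 448 calls and LG I 325, and LG III, VI, II, V and IV carried 161, 71, 69, 67 and 53. LG VII took 55 of 77 calls in OY320, 52 of 100 in OY329, 55 of 88 in OY337, 26 of 42 in OY350 and 83 of 149 in UK3-41. UK2-32 instead had 104 of 160 on LG I, and AR16 FGSC1614 had 60 of 114 on LG III and 0 on LG II. AR16 FGSC2643 spread its calls over LG VII (144), LG I (135), LG III (50) and LG VI (41). UK3-41 was the isolate with the most calls on LG V, 28, against at most 22 elsewhere.

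**Figure D1:**
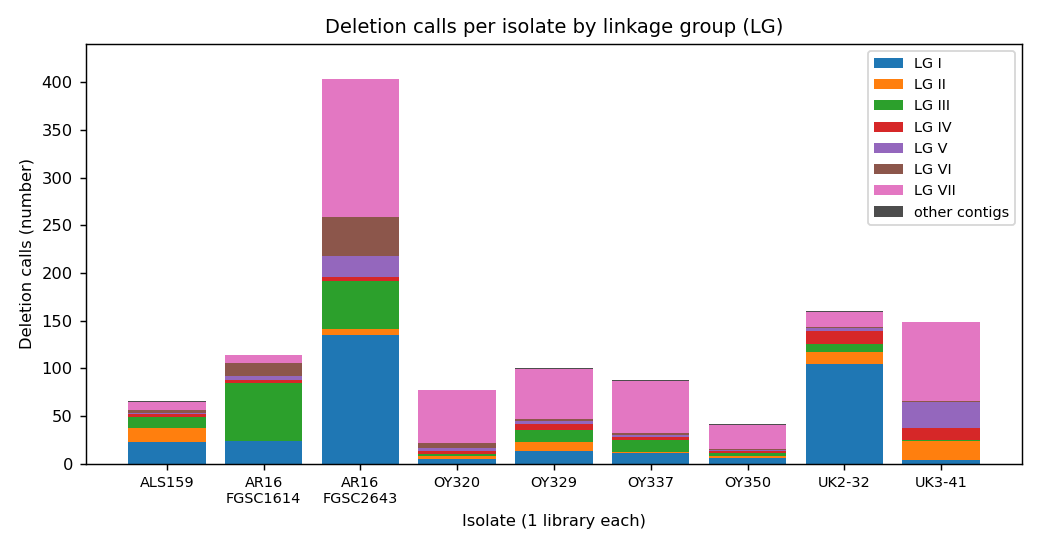
Number of deletion calls in each of the 9 isolates (y axis), stacked by linkage group, with 1 library per isolate. The bar of AR16 FGSC2643 reaches 403, LG VII fills most of the bars of OY320, OY337, OY350 and UK3-41, LG I most of UK2-32 and LG III most of AR16 FGSC1614.

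The sizes of the calls fell into separate ranges. Read-pair deletions had a median span of 2394 bp (quartiles 360 and 11306 bp), from 106 bp to 7325051 bp. Split-read deletions were smaller, with a median of 319 bp, a smallest span of 1 bp and 128 of 474 under 50 bp, a range in which no read-pair call lay. In both classes calls were fewer between 1 and 3 kb than on either side. Beyond 100 kb there were 65 read-pair calls but 6 split-read calls. The shortest median span of read-pair deletions was 625.5 bp in AR16 FGSC1614 and the longest 8244 bp in OY350, and restricted to spans of 100 kb or less the median of all read-pair calls was 1356.5 bp.

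**Figure D2:**
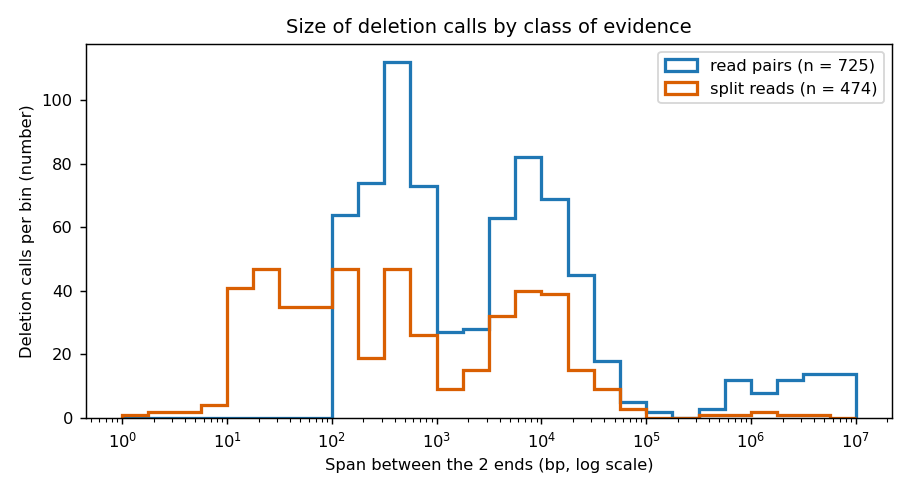
Distribution of the span between the 2 ends of each deletion call (log scale, bp) for 725 read-pair and 474 split-read calls, 4 bins per factor of 10. Both classes have a hump below 1 kb and another around 10 kb, split reads reach down to 1 bp, and the spans over 100 kb are almost all from read pairs.

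Calls of any isolate with both ends within 1000 bp were joined to 548 loci, of which 326 were under 1 kb, 107 from 1 to 10 kb, 81 from 10 to 100 kb and 34 over 100 kb. A median locus spanned 448.75 bp. Ends were sharp between isolates. In 170 of the 178 loci of 2 or more isolates, the starts and the ends each spread over at most 100 bp. The tolerance exceeds the span of a locus under 1 kb, so separate small calls can fall in the same locus. On LG I, calls of AR16 FGSC2643 (435248 to 435357), OY329 and UK2-32 (435572 to 435647) and ALS159 (435924 to 435958) form 1 locus without overlapping. Read pairs and split reads both called 183 loci (33.4%). That share was 56.1% for loci of 1 to 10 kb and 51.9% for 10 to 100 kb, but 23.6% under 1 kb and 11.8% over 100 kb, where 28 of 34 loci rested on read pairs only. Within an isolate 57.2% of all split-read calls had a read-pair call with both ends within 1000 bp. That share ran from 24% in OY350 and 28% in ALS159 to 69.1% in UK3-41. In reverse, 37.5% of read-pair calls had a split-read call.

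Support by reads was higher for deletions than for other junctions. The median number of supporting read pairs per deletion call ran from 8 to 12 over the isolates, with a median of 8.5, against 5 to 7 for interchromosomal, inversion and duplication calls. The difference was 3.94 reads on average and positive in 9 of 9 isolates (exact sign-flip permutation test over isolates, two-sided, p = 0.00391, the smallest that 9 isolates allow, adjusted 0.0137). Split-read deletions had medians of 5 to 7 against 4 to 6, a mean difference of 1.17 reads that was positive in 8 of 9 isolates and 0 in UK2-32 (exact sign-flip permutation test, p = 0.00781, adjusted 0.0137). Among calls with at least 10 reads the split-read difference was 0.643 and did not pass the test (exact sign-flip permutation test, p = 0.5). The best supported deletion was a 33327 bp call of OY337 on LG VII, at 2307623 to 2340950, with 34 read pairs. The same interval was called with 31 read pairs in OY320, 25 in OY329 and 15 in UK3-41, and by split reads in all 4.

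Most loci belonged to 1 isolate. Of the 548 loci 370 (67.5%) were found in a single isolate, 92 in 2, 32 in 3, 20 in 4, 18 in 5, 11 in 6, 4 in 7 and 1 in 8, and no locus was found in all 9. AR16 FGSC2643 held 190 of the 370. Without this isolate there were 358 loci. The share of an isolate's loci found nowhere else was 6.35% in OY320, 8.82% in OY337, 11.7% in OY329, 15.3% in ALS159, 25.5% in UK3-41, 44.0% in UK2-32, 55.6% in OY350, 57.6% in AR16 FGSC1614 and 63.5% in AR16 FGSC2643. OY320, OY329 and OY337 therefore had few deletions of their own, and the AR16 isolates and OY350 had mostly their own.

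Counted by calls, 471 deletion calls (39.3%) had no partner in another isolate, against a background of 41.9% for the other call types and 40.8% for all calls. Within isolates the share was 5.19% to 60.5% for deletions, with a median of 26.8%, and 19.6% to 80.2% for the others, with a median of 27.5%. It was lower for deletions in 8 of 9 isolates (deletions minus other types -9.30 percentage points on average), and this missed the threshold (exact sign-flip permutation test, p = 0.082, adjusted 0.082). OY350 was the exception, with 47.6% of deletions against 24.1% of other calls, and without it the difference was -14.1 points (p = 0.00781, exact sign-flip permutation test). Without AR16 FGSC2643 it was -2.95 points (exact sign-flip permutation test, p = 0.578). Of the 25 split-read deletions of OY350, 18 spanned under 50 bp and all 18 were found in this isolate only. Shared read-pair deletions had 1.89 more supporting reads than specific ones on average, positive in 6 of 9 isolates (exact sign-flip permutation test, p = 0.0625, adjusted 0.0729). In OY320, OY350, OY337 and ALS159 the specific class held 1, 1, 3 and 5 calls, and the difference was 2.5 reads without ALS159 (exact sign-flip permutation test, p = 0.0312) and 2.69 without UK3-41 (exact, p = 0.0156), but 1.13 without AR16 FGSC2643 (exact, p = 0.312) and 1.25 without UK2-32 (exact, p = 0.297).

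The pairs of isolates differed widely in what they shared. OY329 and OY337 had 52 loci in common, which is 67.5% of the loci of OY329 and 76.5% of those of OY337. OY320 shared 47 loci with UK3-41 (74.6% of its own and 42.7% of those of UK3-41) and 44 each with OY329 and OY337. The isolates labelled AR16 had 18 loci in common, 21.2% of the loci of FGSC1614 and 6.02% of those of FGSC2643. AR16 FGSC2643 shared more loci with UK3-41 (48), with UK2-32 (42), with OY320 and OY337 (35 each), with OY329 (33) and with ALS159 (21). The 36 pairs reuse the same 9 isolates and are given as a description.

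**Figure D3:**
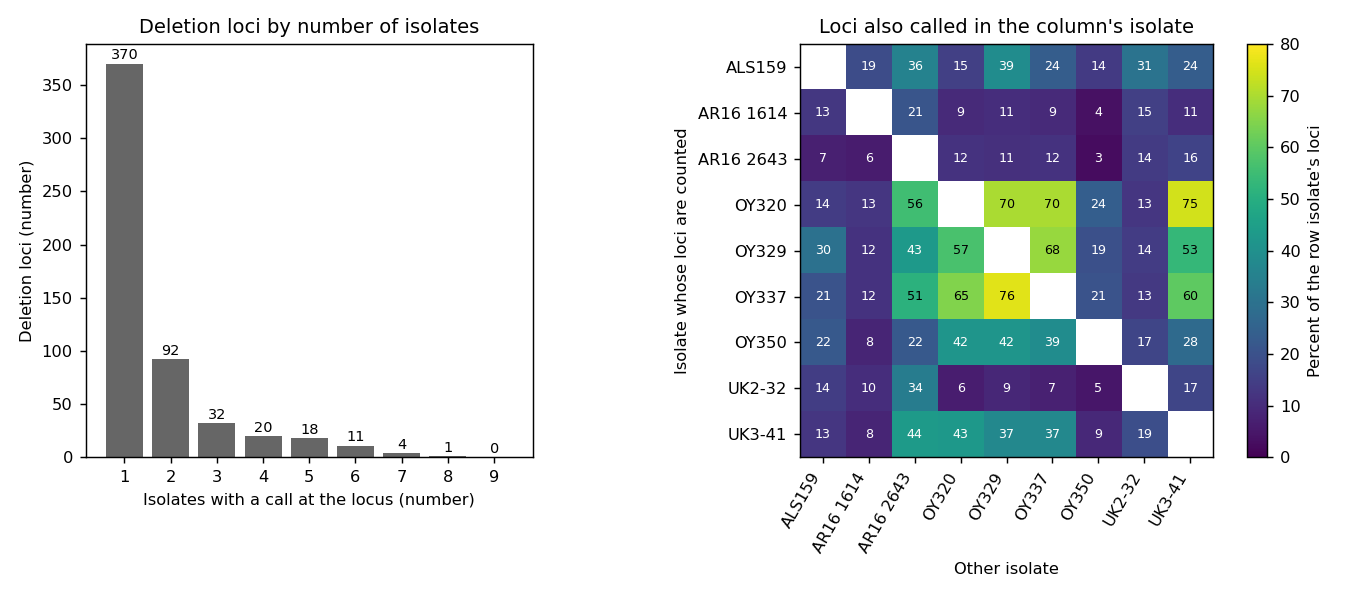
Left, number of deletion loci (y axis) by the number of isolates in which they were called (x axis). Right, percent of the loci of the isolate in each row that were also called in the isolate of each column, where the block of OY320, OY329 and OY337 lies between 57.1 and 76.5 and the AR16 isolates share 21.2 and 6.02.

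The combinations of isolates went with the linkage group. AR16 FGSC2643 and UK2-32 alone shared 29 loci, 26 of them on LG I. All 11 loci found in both AR16 isolates and in no other lay on LG III. A set of 14 loci was called in AR16 FGSC2643, OY320, OY329, OY337 and UK3-41 and nowhere else, and all 14 lay on LG VII. The 8 loci that OY320, OY329, OY337 and UK3-41 shared without AR16 FGSC2643 also lay on LG VII.

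The 16 loci found in 6 or more isolates were of several kinds. The locus found in 8 isolates, all but AR16 FGSC2643, spanned 890344 bp of LG I (27862 to 918206), was called by read pairs alone with 4 to 10 reads, and covers 219 annotated genes. Another, found in 7 isolates, joined positions 2385398 and 9290553 of LG I in OY337, a span of 6905155 bp, with 6 to 18 read pairs and no split read. Yet another joined 8697 and 2215232 of LG III in 7 isolates. These 3 had no split-read call in any isolate, nor did several smaller loci of the 16, from 106 bp on LG IV to 8238 bp on LG I. The remaining 13 loci had no whole gene inside. On LG VII, deletions of 10871 bp at 1434038 to 1444909, 11304 bp at 1823706 to 1835010 and 10261 bp at 2093667 to 2103928 were each called in 6 isolates, with both classes of evidence, and contain no annotated gene sequence. AR16 FGSC2643, OY320, OY329, OY337 and UK3-41 had all 3, AR16 FGSC1614 the first of them and OY350 the others.

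The density of loci was 35.3 per Mb on LG VII, 17.6 on LG I, 13.8 on LG III, 11.4 on LG VI, 7.83 on LG II, 6.37 on LG V and 4.33 on LG IV. Without AR16 FGSC2643 it was 19.7 on LG VII and 3.83 on LG IV, and LG VII still came first and LG IV last. Near chromosome ends, where H3K27me2/3 domains are enriched in wild type, the share of deletion loci lay near the share of the assembly. Of 545 loci on LG I to VII, 34 (6.24%) had both ends within 200 kb of an end of the linkage group, beside 6.92% of the assembly. Within 100 kb the values were 3.12% and 3.46%. With at least 1 end in the window the share of loci was 8.26% at 200 kb and 4.77% at 100 kb. These lie above the shares of the assembly, which hold for a single position. Either end of a locus could count here, so an excess cannot be read from them.

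Along the chromosomes the loci came in runs. A run was taken as at least 8 loci of 100 kb or less in 1 isolate with starts no more than 300 kb apart, a description chosen after the positions were seen. The share of an isolate's loci lying in such runs was 32.7% in ALS159, 48.4% in OY350 and 58.6% to 85.6% in the other 7. AR16 FGSC1614 had 28 loci on LG III from 1702529 to 3686073 and 12 more from 4073347 to 4780509. UK2-32 had 53 on LG I from 3476718 to 6333275, of which 27 were its own. OY320, OY329, OY337 and UK3-41 had 34, 35, 38 and 37 loci on LG VII, starting between 1268772 and 1323347 and reaching 2811049 in the first 3 and 2871818 in UK3-41, nearly all of them shared, and OY350 had 15 between 1792965 and 2103928, of which 11 were its own. UK3-41 had 13 on LG V from 3851127 to 5132550, of which 12 were its own, and AR16 FGSC2643 had 106 along LG VII and 72 on LG I from 4646965 to 8787432. Runs of AR16 FGSC1614 covered 9.38% of the assembly and held 70.4% of its loci of this size.

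The ends of the calls lay mostly outside genes. Genes of the RefSeq annotation cover 57.0% of the 7 linkage groups. Of 1022 ends of loci up to 100 kb, 19.6% lay inside a gene, and when the gene positions were moved by 3 to 50 kb the share was 48.3% to 55.9%, so that the positions of the calls and of the annotation match. Per isolate, the share of ends of deletions up to 100 kb inside genes was 8.97% in UK2-32 at the lowest, 12.8% at the median and 33.3% in OY350 at the highest. For the other call types it was lower still, 2.42% to 11.9%. Deletions exceeded the other types by 9.69 percentage points on average and in 9 of 9 isolates, a comparison chosen after the data were seen (exact sign-flip permutation test, p = 0.00391, the smallest possible, adjusted 0.0137). OY350 had the widest difference, 30.5 points, and the median was 7.47. Deletions over 100 kb were left out of this comparison, while the other types had no limit on span.

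What lay between the ends depended on size. Among loci under 1 kb, 222 of 324 (68.5%) touched no gene and 14.5% of their summed span was gene sequence. From 1 to 10 kb, 94 of 107 (87.9%) touched no gene and 1.71% of the summed span was gene sequence. From 10 to 100 kb, 63 of 80 (78.8%) touched none, with 6.43%. Loci over 100 kb, by contrast, held 58.2% gene sequence, close to the assembly as a whole, with a median of 489 whole genes. In all, 9 of 511 loci up to 100 kb contained a whole annotated gene.

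**Figure D4:**
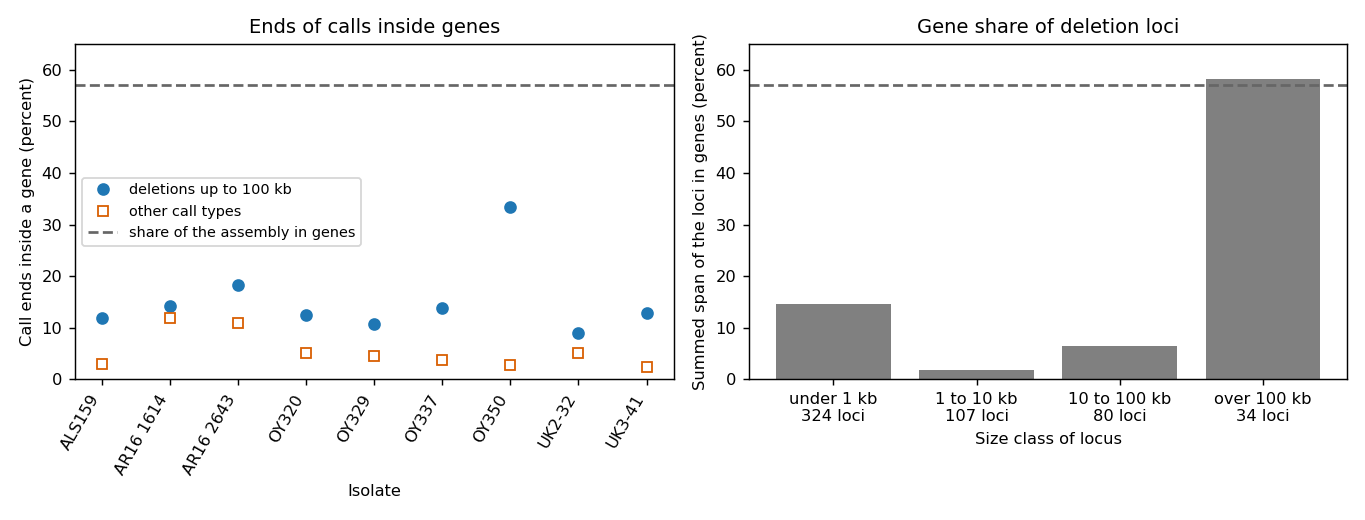
Left, percent of call ends inside an annotated gene in each isolate for deletions up to 100 kb (filled circles) and for other call types (open squares). Right, percent of the summed span of deletion loci that is gene sequence, by size class. The dashed line marks the 57.0% of the assembly in genes, which the loci over 100 kb reach and the smaller loci and all call ends do not.

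The deletions with the best support were next taken among loci that hold both read-pair and split-read calls, all from 1 isolate. There were 38 such loci in AR16 FGSC2643 with at least 5 reads of each class, 16 in AR16 FGSC1614, 9 in UK2-32, 8 in UK3-41, 1 in OY329 and 0 in the remaining 4. The leading loci of AR16 FGSC1614 were 505 bp of LG I (1550597 to 1551102, 25 read pairs and 14 split reads), 51522 bp of LG III (2185320 to 2236842, 26 and 12) and 9748 bp of LG III (2881133 to 2890881, 27 and 9). Those of AR16 FGSC2643 were 441 bp (1001323 to 1001764, 29 and 7) and 581 bp (1096908 to 1097489, 18 and 14) of LG VII and 638 bp of LG I (6600358 to 6600996, 20 and 11). UK2-32 led with 6621 bp (3881126 to 3887747, 28 and 13), 154 bp (2605296 to 2605450, 13 and 18) and 19164 bp (4336067 to 4355231, 12 and 18), all on LG I.

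All 3 leading loci of UK3-41 lay on LG V. They spanned 12854 bp (4506978 to 4519832, 25 read pairs and 13 split reads), 16776 bp (4783397 to 4800173, 19 and 8) and 6668 bp (3196738 to 3203406, 15 and 6), and the last contains am and a noncoding gene. The locus of OY329 on LG IV joined read-pair calls of 191 and 428 bp and a split-read call of 47 bp, which lie beside each other between 495812 and 497013. These calls do not overlap, so no deletion there was called by both classes.

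The 3 largest loci on read pairs were all on LG I and had no split-read call. Their longest calls were 7325051 bp in OY329, at a locus of 3 isolates, 6905174 bp in UK3-41, at 1 of 7 isolates, and 6904789 bp in OY320 alone. The 3 largest on split reads were 5199016 bp of LG I in AR16 FGSC2643 (7 split reads and 19 read pairs), 1879355 bp of LG V in UK3-41 (5 and 6) and 1150292 bp of LG I in AR16 FGSC2643 (4 and 20). The LG V interval of UK3-41, 3897193 to 5776548, holds 490 genes and is the donor site of its translocation. Smaller deletions were called inside 27 of the 34 loci over 100 kb in the same isolate, 12 loci inside the LG V interval of UK3-41, so that reads mapped inside these intervals.

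Genes inside the large intervals had mRNA. Counted as pairs of strain and gene, 22713 were tested inside calls over 100 kb, and 15.3% were lower in the strain with the call than in the mean of the other 6 strains (edgeR, adjusted p under 0.05). Strain by strain the share inside lay beside that of all genes tested, at 25.3% against 25.6% in ALS159, 4.47% against 3.07% in AR16, 21.6% against 21.6% in OY329, 2.34% against 2.74% in OY337, 0.833% against 1.08% in OY350, 12.7% against 12.6% in UK2-32 and 26.3% against 26.5% in UK3-41. Of 26173 counted pairs, 12 had no more than 1 count in both libraries while every library of the other strains had at least 1 CPM (counts scaled to a common library size), 10 of them in ALS159. That is 0.0458%, against 0.0675% of all pairs of strain and gene (46 of 68110), and ALS159 had 17 such genes in all. Both backgrounds include the genes inside the calls, 4325 of the 8170 tested in ALS159, which draws the compared shares together.

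Deletions up to 100 kb contained 74 counted pairs of strain and gene, and 9 of the 64 tested were lower and 16 higher in the strain with the call (edgeR, adjusted p under 0.05). Of the 9 lower, 7 were in UK3-41, where 26.5% of all genes were lower, and 2 in OY329, where 21.6% were. Of the 16 higher, 11 of 32 tested were in OY329, where 26.2% of all genes were higher, 2 of 2 in ALS159 (26.0%), 2 of 10 in OY337 (8.24%) and 1 of 7 in UK2-32 (17.5%). None of the 2 tested in AR16 (6.27%) or of the 11 in UK3-41 (29.8%) was higher. The genes fall into those that went with the call and those that did not.

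The clearest loss was am, the NADP-specific glutamate dehydrogenase that assimilates ammonium. In UK3-41 both libraries had 0 reads on am (NCU01195), within the 6668 bp deletion of LG V. The other 12 libraries had 202 CPM at the lowest, 477 at the median and 1505 at the highest, so the groups do not overlap. Against the 3 counts that a count of 0 allows over the 2 libraries, am was at least 4352-fold lower than their mean (edgeR adjusted p = 1.04e-07). It was the only gene inside a deletion up to 100 kb with at most 1 count in each library of the strain with the call and 1 CPM or more in each of the other 12 libraries, against 0.0675% of all pairs of strain and gene.

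On LG VI an 11528 bp deletion, 309012 to 320540, was called in ALS159, AR16 FGSC1614 and AR16 FGSC2643 by both classes of evidence, with 19, 17 and 11 read pairs and 6, 8 and 6 split reads. It contains NCU09968 and NCU09969. ALS159 had 1165 and 962 counts on NCU09968 (124 and 119 CPM) and 67 and 47 on NCU09969, the highest of all strains. AR16 had 0 on both, and over the remaining 10 libraries there were 2 and 1 counts. Thus the strain that expressed these genes was one with the call, and strains without the call did not express them (edgeR log2 fold change of NCU09968 in ALS159 12.59, SE 0.30, adjusted p = 4.36e-06).

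On LG VII the same 4 isolates that shared the 33 kb deletion also shared a call of 56251 bp, 2069506 to 2125757, with 12 read pairs in OY320, 21 in OY329, 12 in OY337 and 12 in UK3-41. It spans 11 genes, among them syn-1, which encodes a synaptobrevin of secretory vesicles. Reads on syn-1 were at 117 and 188 CPM in OY329, 97.6 and 110.5 in OY337 and 97.8 and 90.2 in UK3-41, against 91.2 to 176 in the 8 libraries of strains without the call. NCU02455, at the end of the interval, had 203 and 180 CPM in OY329, 208 and 200 in OY337 and 122 and 101 in UK3-41. None of the 11 genes met the rule that am met, and 6 were lower in UK3-41 (edgeR, adjusted p under 0.05), from -0.76 on the log2 scale for NCU02455 to -1.35 for NCU02459, beside 26.5% of all its genes. In OY329, by contrast, 5 of the genes were higher, namely NCU02456, NCU02459, syn-1, NCU06018 and NCU11300, and none was lower, and in OY337 2 were higher, NCU02458 and NCU02459 (edgeR, adjusted p under 0.05). The log2 fold change of NCU02459 was 0.90 in OY329 and 0.71 in OY337. Each of these isolates also had a 10 kb deletion inside, 2093667 to 2103928.

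Likewise the 31170 bp call of UK2-32 on LG I, 5783439 to 5814609, with 7 read pairs and 4 split reads, spans 9 genes, and all 8 of them that were counted had reads in UK2-32. One is gpr-6, a predicted G protein-coupled receptor, with 19.8 and 26.0 CPM in UK2-32 against a median of 24.3 in the other libraries. NCU09197 was higher in UK2-32 (log2 fold change 1.59, SE 0.20, edgeR adjusted p = 0.000531). The widest interval of this class, 96270 bp of LG I in OY329 (4076160 to 4172430), had 4 supporting reads and spans 22 genes, all with reads in both libraries of OY329, and 2 of them, NCU09806 and NCU09814, were lower (log2 fold changes -0.88 and -0.65, edgeR adjusted p = 0.00404 and 0.00484), beside 21.6% of all genes lower in OY329. Another 6 were higher, NCU09804, NCU09809, NCU09810, NCU09820, NCU09821 and NCU16379 (edgeR, adjusted p under 0.05), of which NCU09820 had a log2 fold change of 2.59 and NCU09821 of 1.20, beside 26.2% of all genes higher. The 4 other genes wholly inside calls, NCU09105 and NCU10702 in UK2-32, NCU10906 in AR16 and NCU16630 in ALS159, OY329 and OY337, had 0 reads in those strains and at most 3 counts summed over the others, so that mRNA could not show a loss.

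Small deletions also overlapped parts of genes. Of 61 tested pairs in which a call up to 100 kb overlapped part of a gene, 18 (29.5%) were lower and 7 higher in the strain with the call (edgeR, adjusted p under 0.05), beside 12.9% lower among all genes with the same weight of strains. The share was 5 of 6 in ALS159 (25.6% of all its genes), 4 of 11 in AR16 (3.07%), 2 of 6 in OY337 (2.74%), 4 of 11 in UK2-32 (12.6%), 1 of 4 in OY329 (21.6%), 2 of 13 in UK3-41 (26.5%) and 0 of 10 in OY350 (1.08%). The 7 higher were 4 in UK2-32 (17.5% of all its genes were higher) and 1 each in AR16 (6.27%), OY329 (26.2%) and UK3-41 (29.8%), with 0 in ALS159 (26.0%), OY337 (8.24%) and OY350 (3.84%). These genes, and those named next, were looked at after their values were seen. The background is that of the whole genome, and some runs of loci lay above it. Lower were 28 of 47 tested genes in the LG VII run of ALS159 and 23 of 60 in the LG II run of UK2-32. In the LG VI run of AR16 31 of 90 were lower, but in the LG VII run of OY329 60 of 283, near its background. Touched genes were not compared with untouched genes of the same runs.

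NCU05921 on LG VI had 0 reads in both libraries of AR16, where a 444 bp deletion (3468664 to 3469108, 9 read pairs) overlaps 156 bp of it. The other 12 libraries had 16.1 to 54.1 CPM, so that AR16 was at least 171-fold lower than their mean (edgeR adjusted p = 6.64e-06). NCU10684 on LG II had 0 reads in UK2-32, where a 1709 bp deletion (653953 to 655662, 8 read pairs) covers 91.2% of the gene, and 0.852 to 4.67 CPM in the others (edgeR adjusted p = 0.00278). That deletion lies in the LG II run of UK2-32, where 23 of 60 tested genes were lower. NCU08768 on LG III, overlapped by 22 bp of a 7632 bp deletion in UK2-32 (5207246 to 5214878), had 2.50 and 2.50 CPM there against 13.3 to 27.8 in the other libraries (log2 fold change -3.13, SE 0.23, edgeR adjusted p = 4.89e-05).

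NCU09031 on LG VII carries a 16 bp split-read deletion (390119 to 390135) called at identical positions in 4 isolates, with 14 reads in ALS159, 11 in AR16 FGSC2643, 10 in UK2-32 and 9 in UK3-41. The 3 of these strains with mRNA were the lowest of the 7. ALS159 had 0 and 0.123 CPM, UK2-32 had 1.25 and 0.883 and UK3-41 had 5.41 and 6.11. In the 4 strains without the call the libraries ranged from 18.5 to 61.7 CPM. The share of all genes that separate these 3 strains from the other 4 in this way was not counted. In edgeR, where each strain is set against the mean of the other 6, ALS159 and UK2-32 were lower (adjusted p = 4.07e-05 and 0.0204) and UK3-41 was not called (log2 fold change -0.45, SE 0.55, adjusted p = 0.508). Of all genes tested, 25.6% were lower in ALS159 and 12.6% in UK2-32. The 16 bp call lies in LG VII runs of these strains, where 28 of 47 tested genes were lower in ALS159 and 9 of 50 in UK2-32. Not every touched gene was low. NCU02049, overlapped by the 505 bp deletion of AR16 FGSC1614, had 36.5 and 40.6 CPM in AR16 against 10.7 to 30.8 elsewhere (log2 fold change 0.97, SE 0.15, edgeR adjusted p = 0.00478).

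**Figure D5:**
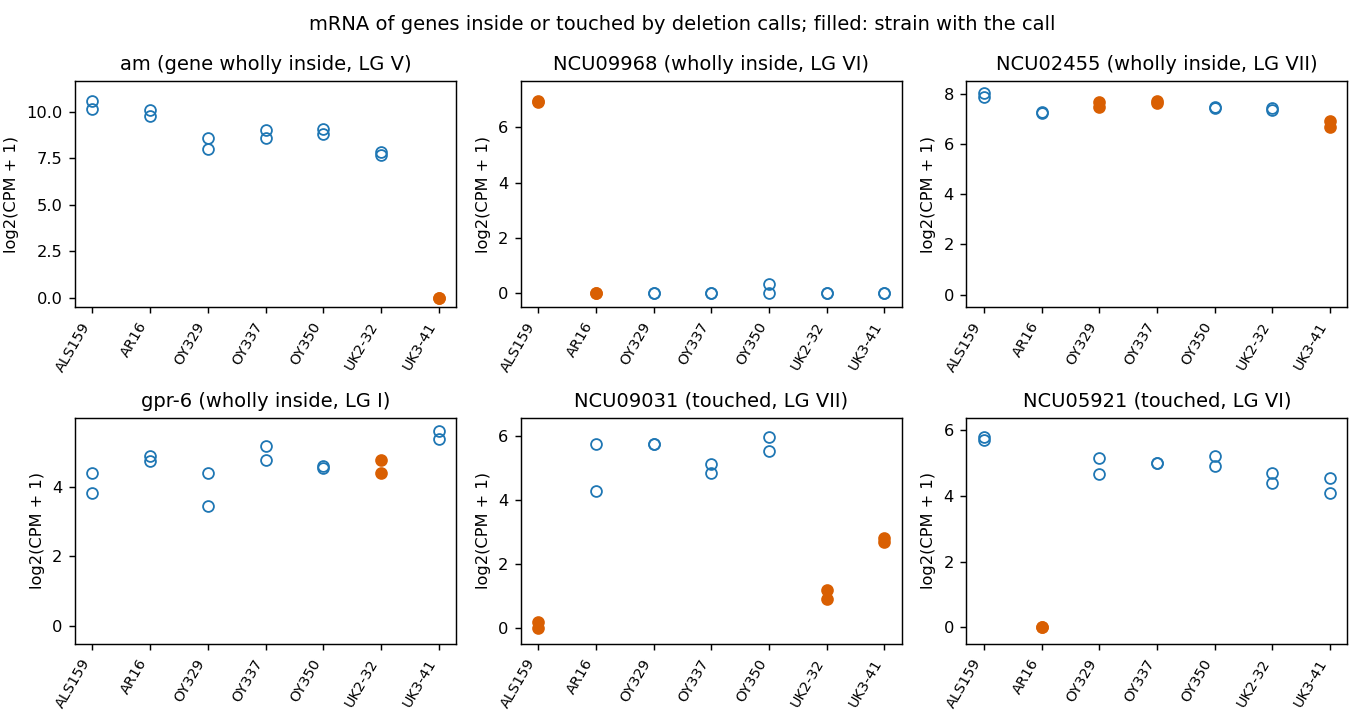
mRNA level, as log2(CPM + 1), of 6 genes in the 2 libraries of each of 7 strains, with filled points for strains that have a deletion call containing or touching the gene. The points of UK3-41 at am and of AR16 at NCU05921 lie at 0, the 3 strains with the call at NCU09031 lie below the other 4, ALS159 is the highest at NCU09968, and at NCU02455 and gpr-6 filled and open points mix.

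The runs of AR16 FGSC1614 differed in mRNA from the rest of its genome. Of 800 tested genes lying in its 4 runs, 171 (21.4%) differed from the other strains in either direction (edgeR, adjusted p under 0.05), against 8.03% of the 7370 genes outside and 9.34% of all genes tested in AR16. In the run on LG VI, 3335044 to 3808187, 35 of 90 (38.9%) differed and 31 were lower. Of all genes tested in AR16, 3.07% were lower. With at most 1 count in each library of AR16 and 1 CPM or more in each of the other 12 libraries there were 8 genes, of which 7 lay in its runs and 5 in that on LG VI, namely NCU05083, NCU05130, NCU05919, NCU05920 and NCU05921. The other 4 of these 5 lay in no deletion call up to 100 kb. In the other strains the share over all runs together was nearer to the background. It was 60.0% in runs against 51.6% of all genes in ALS159, 48.0% against 47.8% in OY329 and 16.0% against 11.0% in OY337. In OY350 it was 2.74% against 4.92%, in UK2-32 34.6% against 30.2% and in UK3-41 54.5% against 56.3%. Single runs departed more. On LG VII in ALS159 31 of 47 differed and 28 were lower, beside 25.6% of all its genes lower. On LG II in UK2-32 27 of 60 differed and 23 were lower, beside 12.6%. On LG VII in OY329, by contrast, 60 of 283 were lower, beside 21.6%.

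Genes that the genotypes name were not inside any deletion call of 100 kb or less. The matA-1 gene, the mating type regulator of mat A strains, was spanned by calls of ALS159, AR16 FGSC1614 and UK2-32 alone, the smallest of them 798801 bp in UK2-32. Both libraries of AR16 and of UK2-32 had 0 reads on matA-1, matA-2 and matA-3, and those of ALS159 had 7 and 1 on matA-1. Of the strains without such a call, UK3-41 had 294 and 276 reads on matA-1, OY337 had 80 and 68, OY329 had 38 and 18 and OY350 had 34 and 17. On matA-2, OY337 and OY350 also had 0 in both libraries and OY329 had 1 and 0, against 44 and 46 in UK3-41. On matA-3, OY329 and OY337 each had 2 and 0 and OY350 had 1 and 1, against 42 and 50 in UK3-41. AR16 FGSC1614 is listed as mat a and UK2-32 as mat A. A link of these counts to the calls was not tested. The phytoene synthase gene al-2, marked in OY337, was spanned by calls of at least 3392776 bp in 7 isolates and had 8355 and 6907 counts in OY337. The inositol-phosphate synthase gene inl, marked in UK3-41, was spanned by its translocation interval and had 21168 and 16980 counts there, the most of any strain. The anthranilate synthase gene trp-2 was spanned by a call of 748706 bp in OY329, the segment of LG VI that this strain carries on LG III, and had 3650 and 384 counts in OY329 (139 and 74.6 CPM).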

How the data were processed

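Breakpoint lists came from input DNA of 9 isolates, 1 library each. The study's methods name bwa-mem for the alignments and LUMPY for the breakpoints, and the lists keep read pairs and split reads apart. Each call has a score as deposited by the authors, which did not follow the number of reads in every call. On LG I a UK2-32 call with 24 read pairs had 0.00483, and an ALS159 call with 4 had 1.9e-10. The ends used are the most likely base of each end as deposited. The files hold 197 deletion calls under 5 reads and 11 without a finite score, and all calls were used. The methods give a minimum call weight of 5 and an evidence set score under 0.05. Whether call weight means reads is not stated, and the score limit had not been applied to all calls. Of 2785 lines, 3 were blank. Positions are on the assembly of strain OR74A (NC12) that the authors corrected. No genome was used, and no sequence is shown. Depth of the input libraries is not given in the sources used here.

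Calls were joined to a locus by single linkage with both ends within 1000 bp. Isolates were compared by exact sign-flip permutation tests, two-sided, on paired differences, and 7 tests across isolates were adjusted by Benjamini-Hochberg. Lengths of linkage groups were taken as the highest position in any call, 40.45 Mb in all. Gene positions came from the RefSeq table of NC12, in which 9729 of 9730 counted genes matched by locus tag. A gene was inside a call when it lay wholly between the ends.

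For mRNA the authors deposited counts of whole reads per gene, with 5.61% to 26.3% of counted reads on no gene, in 5 rows that were left out. Aligner, strandedness and annotation release of the counting are not given in the sources used here, so overlapping and antisense genes cannot be told apart. The 14 libraries of 7 strains were filtered with filterByExpr (8170 genes), scaled by TMM and fitted with edgeR 4.0.16 (limma 3.58.1, R 4.3.3) by the quasi-likelihood test, each strain against the mean of the other 6 at an adjusted p of 0.05, with a common dispersion of 0.0433. CPM use TMM library sizes, except in the rule of at most 1 count in a strain and at least 1 CPM elsewhere, which uses library totals. A count of 0 was taken to allow 3 counts. Intervals and floors cover counting error only, since PCR reads are not independent molecules. The study calls its RNA-seq libraries biological duplicates, and p-values measure the spread between them. The scripts were tested on simulated data. Python 3.11.15, SciPy 1.17.1 and matplotlib 3.10.9 were used otherwise.

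Loci were named by a rule: those with read-pair and split-read calls of at least 5 reads in exactly 1 isolate (at most 3 per isolate), the 3 largest on each class of evidence, the LG V junction of UK3-41, loci found in all 9 isolates (none), and loci that span genes named in the genotypes. Genes wholly inside named loci up to 100 kb, or lower or without reads inside a call, were named with them. The members, the lists and the rule were chosen with earlier results of these data known. Alternatives were limits on reads and score, tolerances of 100 and 5000 bp, complete linkage, each class of evidence alone, interval midpoints, isolates left out, DESeq2 1.42.0, no filter, a replicate block and libraries left out. The table of the authors' own fold changes and p-values was not used.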

Additional observations from a re-analysis of the deposited data

Results flagged for a closer look

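AR16 FGSC2643 lay far above the other 8 isolates, with 403 deletion calls against 160 in the next isolate, 225 read-pair calls against 103 and 178 split-read calls against 57. The median span of read-pair deletions in OY350, 8244 bp over 17 calls, lay far above the others, of which the next was 3836 bp. The median support of split-read deletions in UK3-41, 5 reads, lay below the next lowest of 6. These 5 values were set apart by the gap to the nearest isolate as a share of the range over all 9 (Dixon test), out of 9 measures tested, and chance sets apart about 1 in 20 groups.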

How the results depend on the processing

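With the limits of at least 5 reads and a score under 0.05, 6 loci were in 6 or more isolates (16 with all calls), the isolate-specific share of deletions minus that of other types was -12.3 percentage points (exact sign-flip permutation test, p = 0.0273) and shared deletions had 2.67 more read pairs than specific ones (exact p = 0.0234). With at least 10 reads there were 430 calls, 247 loci, 2 loci in 6 or more isolates and a split-read median span of 613 bp, the specific share differed by -26.5 points (exact p = 0.00391), shared calls had 1.88 more read pairs (exact p = 0.0156), and the split-read support difference was 0.643 (exact p = 0.5). A tolerance of 100 bp gave -13.4 points (exact p = 0.0195) and 2.11 reads (exact p = 0.0273). Read-pair calls alone gave 725 calls, 62.9% of loci in 1 isolate, -15.5 points (exact p = 0.00391) and 2 reads (exact p = 0.0469). Split-read calls alone gave 474 calls, 333 loci, 75.7% in 1 isolate and 1 locus in 6 or more. Fewer calls or isolates follow from the construction of these settings. The cause of the other shifts was not tested. Without AR16 FGSC2643 there were 796 calls, 358 loci, 7 loci in 6 or more isolates and r = 0.616 (exact p = 0.111). Read-pair deletions of 100 kb or less, a limit added after seeing the data, had a median of 1356.5 bp. Both ends lay within 100 kb of a linkage group end in 3.12% of loci. Genes overlapping a call up to 100 kb by at least 1 bp gave 27 called lower against 9 wholly inside.

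With 1 isolate left out in turn there were 796 to 1157 calls, 358 to 544 loci, 65.4% to 73.0% of loci in 1 isolate (highest without UK2-32), 5 to 15 loci in 6 or more isolates, a specific-share difference of -14.1 (without OY350) to -2.95 points (without AR16 FGSC2643), a shared-minus-specific support of 1.13 to 2.69 reads and an r of 0.616 to 0.944. The lowest counts of loci in 6 or more isolates, 5, came without OY320, without OY329 and without OY337, with 7 without UK3-41 and 8 without OY350. The read-pair support difference and the difference of ends in genes kept their sign and passed the test in each of these. Tolerance of 5000 bp, complete linkage, interval midpoints and LG I to VII alone ended or made no call.

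In mRNA, the count of genes called lower inside deletions up to 100 kb was 9 with DESeq2, with no filter and with the replicate block, and 8 to 11 with a library left out. The replicate number is shared by 6 strains, and the correlation of their deviations was -0.29 to 0.46 over 15 pairs of strains, over 0.1 in 3, so that numbers were not taken as pairs. With 1 library left, its spread is assumed to be that of the other strains.

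Without the depth of the input libraries, a missing call cannot be read as an intact interval.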
